A study of Mus musculus with 27 samples.

Results

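Hyaluronan is a long sugar chain of the extracellular matrix, and 7 genes for making, cutting and binding it were followed here in the mouse uterus after estradiol. They were chosen as the probes whose gene name in the scanner files was Has1, Has2, Has3, Hyal1, Hyal2, Cd44 or Tnfaip6, which gave 12 of 41174 probes and 7 of 21861 tested genes. RNA was hybridised to 27 one-colour Agilent arrays, 3 in each of 9 groups. Ovariectomised females of the (B6 × C3H)F1 hybrid, of C3H and of B6 (C57BL/6) received 17β-estradiol (E2) at 40.0 µg/kg, given into the abdominal cavity in saline (0.1 ml) that held 0.25% ethanol, and were killed 2 h or 24 h later, or received the saline and ethanol vehicle alone. Per the labels all animals were 8 weeks old and had rested for 1 to 2 weeks after surgery. The labels name tissue from 3 animals per treatment group and do not say which animal an array holds. The p-values therefore reflect the spread among these arrays, which may be technical. All groups share the removal of the ovaries, and the vehicle label carries no collection time that sets it apart from the 2 h or the 24 h animals.

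Hyaluronan is spun out at the plasma membrane by 3 synthases (Has1, Has2 and Has3) from the nucleotide sugars UDP-glucuronic acid and UDP-N-acetylglucosamine. Hyaluronidases such as Hyal1, of lysosomes, and Hyal2, a membrane-anchored enzyme, cut the chains, Cd44 is the main cell-surface receptor, and Tnfaip6 encodes TSG-6, a secreted protein that moves heavy chains of inter-alpha-inhibitor onto hyaluronan. In the rodent uterus estradiol causes water uptake and stromal swelling, and hyaluronan is a water-binding part of that stroma.

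The promoter windows of 5 of the 7 genes were found in RefSeq (build GRCm38.p6, 250 bases before and 50 after the annotated gene start). Those of Has1 and Tnfaip6 are shown because these genes moved in opposite directions at 2 h and held 1 match to TGACGTCA and 1 to TGANTCA. A link between a match and a change was not tested. The Has1 window lies on the minus strand at chr17:17855139-17855438, and its capitals mark the single match to TGACGTCA, the cyclic-AMP response element. The Tnfaip6 window lies on the plus strand at chr2:52037863-52038162, and its capitals mark a match to TGANTCA, the AP-1 element, and a match to GGGCGG, the GC box, on the reverse strand.
Has1: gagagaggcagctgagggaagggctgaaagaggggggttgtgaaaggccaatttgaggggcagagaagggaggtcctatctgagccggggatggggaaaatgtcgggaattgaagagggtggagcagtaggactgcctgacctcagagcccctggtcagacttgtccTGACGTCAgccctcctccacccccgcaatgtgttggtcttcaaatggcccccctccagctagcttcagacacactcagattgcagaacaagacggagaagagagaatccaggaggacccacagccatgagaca
Tnfaip6: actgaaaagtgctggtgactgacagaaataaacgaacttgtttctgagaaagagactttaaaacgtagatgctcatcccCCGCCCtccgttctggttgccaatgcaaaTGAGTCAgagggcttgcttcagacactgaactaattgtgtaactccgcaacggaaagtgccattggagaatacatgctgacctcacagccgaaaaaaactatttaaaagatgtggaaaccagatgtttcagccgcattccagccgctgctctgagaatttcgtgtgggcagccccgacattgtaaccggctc
On both strands, TGACGTCA was found in 1.79% of 32851 RefSeq promoter windows of this length, TGANTCA in 7.81% and GGGCGG in 35.7%. GGGCGG was also found in the Hyal1, Hyal2 and Cd44 windows. The palindromic estrogen response element (0.07% of windows), CACGTG (7.15%) and TATAAA (13.6%) were in none of these 5 windows. A match describes the letters only. Hyal1 and Hyal2 are neighbours on chromosome 9, with 7.8 kb between their annotated starts in the same orientation.

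Levels are given as log2 of the processed spot signal over the array's own 75th percentile, so 0 is the 75th percentile and a step of 1 is a doubling. A gene was called changed where the limma adjusted p over all 21861 genes was under 0.05, and its level comes from the brightest tested probe. Levels of different genes come from different probes and are not set against each other. Of the members' 12 probes, the second Has1 probe was not well above background on any of the 27 arrays, and the other 11 were tested. Slides held 4 arrays at most, and only some groups shared one, so a change could be set within a slide for E2 2 h against vehicle in F1 and B6 and for E2 24 h against E2 2 h in C3H and B6. The C3H vehicle arrays shared no slide with C3H E2 arrays, and the F1 E2 24 h arrays had a slide to themselves, so slide and group cannot be told apart there.

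Replicate arrays of a group correlated at 0.988 to 0.996 over the tested genes, each by its brightest tested probe. On an array 72.4 to 79.4% of probes were well above background. The number of genes more than 1 log2 unit from the mean of their group was 436 on B6 vehicle replicate 1, 494 on C3H E2 24 h replicate 1 and 294 on C3H E2 2 h replicate 1, against 79 to 198 on the other 24 arrays. Without those 3 arrays, 7 members were called in F1, 7 in C3H and 6 in B6 at 2 h. At 24 h 4 were called in each strain, with Hyal1 (-0.61) the added call in B6. Of 21861 genes, that fit called 13644 in F1 at 2 h, 15709 in F1 at 24 h and 15301 in C3H at 24 h. These counts of members are no result about them.

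**Figure D1:**
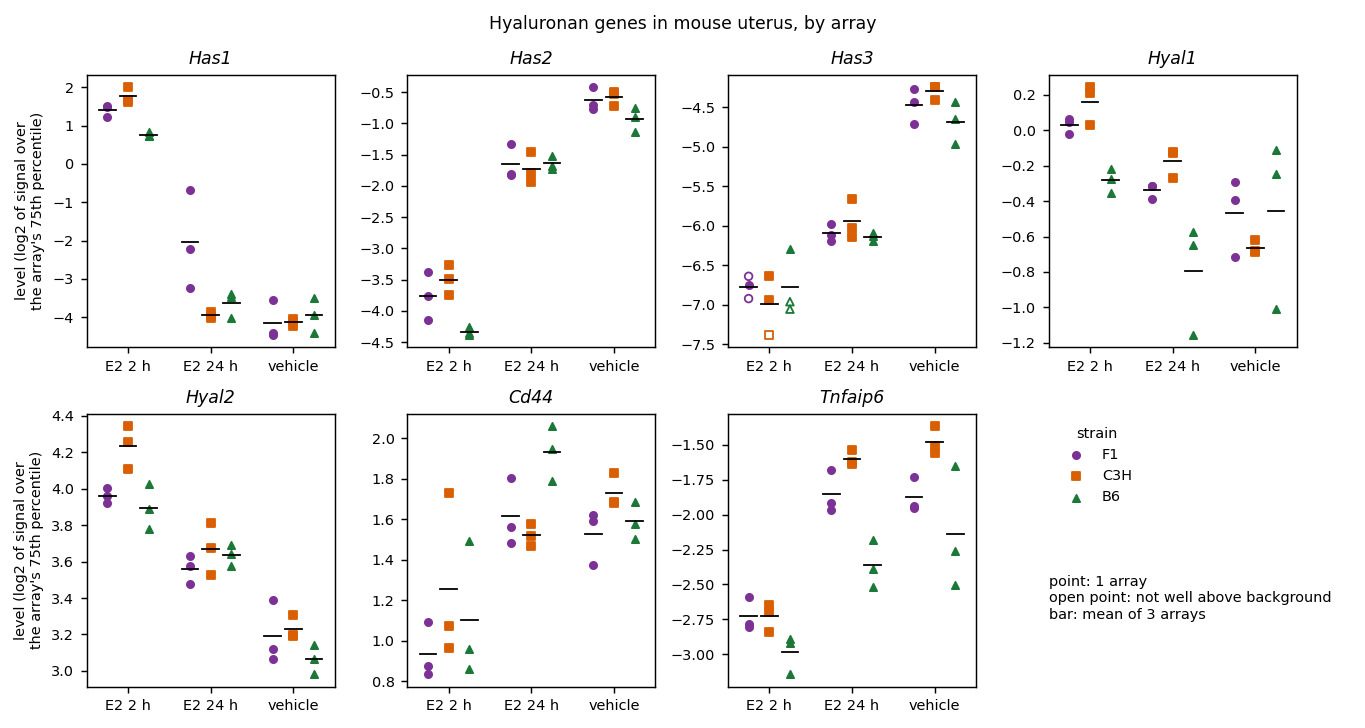
Level of each hyaluronan gene (log2 of signal over the array's 75th percentile, y axis) on every array, by treatment (x axis) and strain. Bars are means of 3 arrays and open points are not well above background. Has1 stood at 0.72 to 2.01 in the 9 E2 2 h arrays, while Has2 and Has3 were lowest in those arrays.

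At 2 h after E2, Has1 and Hyal2 rose and Has2, Has3, Cd44 and Tnfaip6 fell in all 3 strains, while Hyal1 rose in F1 and C3H. Of the 7 members, 3 rose and 4 fell in F1, where 59.2% of all genes were called (23.7% higher and 35.5% lower). In C3H 3 rose and 4 fell, with 60.3% of all genes called (24.8% higher and 35.5% lower). In B6 2 rose, 4 fell and Hyal1 was not called, with 56.3% of all genes called (23.1% higher and 33.1% lower). With most genes called, the number of members called is no result about them, and the sizes and directions are described here. The median change of the members was -0.60 in F1, -0.47 in C3H and -0.49 in B6, against -0.10, -0.10 and -0.08 over all tested genes. Scaling to the array's median shifted the split of all called genes to 6357 higher and 5945 lower in F1, in place of 5171 and 7770. For C3H it gave 6666 higher and 5902 lower, in place of 5432 and 7751. With no scaling 7168 genes were higher and 4668 lower in F1, with 6662 higher and 5184 lower in C3H, and no member changed direction under either.

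Has1 encodes the synthase that is often the least active of the 3 in cultured cells. Its probe (A_51_P492456) lies at chr17:16014445-16014504 on the minus strand of mouse build mm7, the build of all probe positions here. On the F1 arrays Has1 stood at 1.22, 1.48 and 1.50 at E2 2 h, against -3.54, -4.41 and -4.46 with vehicle. On the C3H arrays it stood at 1.62, 2.01 and 1.66 at E2 2 h, against -4.11, -4.05 and -4.23 with vehicle. On the B6 arrays it stood at 0.72, 0.83 and 0.73 at E2 2 h, against -3.93, -4.41 and -3.49 with vehicle. Every E2 2 h array lay far above every vehicle array of the same strain, and the groups did not overlap. The rise was 46.5-fold in F1 (log2 change 5.54, SE 0.40, limma adjusted p = 1.54e-10), 59.5-fold in C3H (5.89, adjusted p = 6.64e-11) and 26.0-fold in B6 (4.70, adjusted p = 2.35e-09). The B6 arrays were the lowest of the 9 at 2 h, yet no strain difference in the 2 h response was called; that of C3H against B6 was 1.19 (95% interval 0.02 to 2.36, adjusted p = 0.319). Within the slide that held both groups the change was 5.86 in F1 (3 arrays against 1) and 4.66 in B6 (1 against 3).

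Has2 encodes the synthase that is needed for heart development in the mouse embryo and that coats the expanding cumulus of the ovary. Its probe (A_51_P213359) lies at chr15:56729040-56729099 on the minus strand. Has2 stood at -3.37, -4.15 and -3.76 on the F1 E2 2 h arrays, against -0.42, -0.70 and -0.76 on the F1 vehicle arrays. It stood at -3.49, -3.75 and -3.26 on the C3H E2 2 h arrays, against -0.72, -0.49 and -0.54 on the C3H vehicle arrays. It stood at -4.26, -4.35 and -4.39 on the B6 E2 2 h arrays, against -1.13, -0.75 and -0.90 on the B6 vehicle arrays. All E2 2 h arrays were lower than all vehicle arrays in each strain, with no overlap. The level at 2 h was 8.78-fold lower in F1 (log2 change -3.13, SE 0.18, limma adjusted p = 4.23e-12), 7.56-fold lower in C3H (-2.92, adjusted p = 1.46e-11) and 10.6-fold lower in B6 (-3.40, adjusted p = 1.36e-12). A second Has2 probe (A_52_P327764, chr15:56755204-56755263) also fell, by 2.63 on the log2 scale in F1, by 2.32 in C3H and by 3.00 in B6, where 58.9%, 59.8% and 55.7% of all probes were called. Within a slide the change was -3.0 in F1 and -3.34 in B6.

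Has3, the third synthase, was dim at 2 h. Its probe (A_51_P398868, chr8:105482571-105482630, plus strand) was well above background on 1 of 3 F1, 2 of 3 C3H and 1 of 3 B6 arrays of E2 2 h, and on all 3 arrays of every other group. It stood at -6.75, -6.64 and -6.92 on the F1 E2 2 h arrays, against -4.27, -4.71 and -4.44 on the F1 vehicle arrays. The 9 E2 2 h arrays lay between -7.38 and -6.30, against -4.97 to -4.24 on the 9 vehicle arrays, with no overlap. The changes were -2.30 in F1 (SE 0.19, limma adjusted p = 1.69e-09), -2.69 in C3H (adjusted p = 1.72e-10) and -2.09 in B6 (adjusted p = 8.63e-09). With most E2 2 h arrays of F1 and B6 not well above background, the size of these changes is uncertain. With another background correction, chosen after seeing the data, they were -0.78, -0.95 and -0.65 in F1, C3H and B6, all called.

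Hyal2 (probe A_51_P284577, chr9:107302066-107302125, plus strand) rose in each strain. It stood at 3.96, 4.00 and 3.92 on the F1 E2 2 h arrays, against 3.39, 3.07 and 3.12 on the F1 vehicle arrays. In C3H it stood at 4.11, 4.26 and 4.34, against 3.20, 3.19 and 3.31, and in B6 at 3.89, 3.78 and 4.03, against 3.14, 2.98 and 3.07. The groups did not overlap in any strain, and the rises were 1.71-fold in F1 (log2 change 0.77, SE 0.09, limma adjusted p = 1.89e-07), 2.01-fold in C3H (1.01, adjusted p = 4.18e-09) and 1.78-fold in B6 (0.83, adjusted p = 7.26e-08). Hyal1 stood at -0.02, 0.06 and 0.05 on the F1 E2 2 h arrays, against -0.71, -0.39 and -0.29 with vehicle, and at 0.03, 0.21 and 0.24 on the C3H E2 2 h arrays, against -0.62, -0.68 and -0.69 with vehicle. It rose 1.41-fold in F1 (log2 change 0.49, SE 0.17, adjusted p = 0.0161) and 1.77-fold in C3H (0.82, adjusted p = 0.000274). In B6 it stood at -0.35, -0.27 and -0.22 at E2 2 h, against -1.01, -0.25 and -0.11 with vehicle, with overlapping groups, and the change of 0.18 was not called (adjusted p = 0.399). Within the shared slide (3 arrays against 1) the F1 change of Hyal1 was 0.32. The F1 call was lost without F1 vehicle replicate 1 (0.37, adjusted p = 0.0959) and with slide as a term (0.32, adjusted p = 0.26). It was also lost with slides 6 and 7 set apart from the others (0.32, adjusted p = 0.298). The 2 Hyal1 probes (A_52_P144173, used for the gene, chr9:107309000-107309059, and A_51_P479408, chr9:107309010-107309069) overlap and are not independent.

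Cd44 fell by 0.60 on the log2 scale in F1 (limma adjusted p = 0.00374), by 0.47 in C3H (adjusted p = 0.0171) and by 0.49 in B6 (adjusted p = 0.016) at 2 h, by the probe used for the gene (A_52_P229536, chr2:102663537-102663596, minus strand). Its E2 2 h arrays stood at 1.09, 0.83 and 0.87 in F1, against 1.37, 1.62 and 1.59 with vehicle. In C3H they stood at 1.73, 1.07 and 0.96, against 1.68, 1.83 and 1.69, and in B6 at 1.49, 0.96 and 0.86, against 1.58, 1.50 and 1.69. Replicate 1 of the C3H E2 2 h arrays reached the vehicle range, and replicate 1 of B6 came close to it. Within the slide shared in B6, which holds that replicate 1, the change was -0.10 (adjusted p = 0.616), and in F1 it was -0.66. The C3H call was lost without E2 2 h replicate 2 (-0.38, adjusted p = 0.0814), E2 2 h replicate 3 (-0.33, adjusted p = 0.115) or vehicle replicate 2 (-0.43, adjusted p = 0.0589). The B6 call was lost without E2 2 h replicate 2 (-0.41, adjusted p = 0.0687), E2 2 h replicate 3 (-0.36, adjusted p = 0.0965) or vehicle replicate 3 (-0.44, adjusted p = 0.0561). With no scaling between arrays none of the 3 strains was called (-0.37, -0.32 and -0.41), and with scaling to the median the C3H change was -0.35 (adjusted p = 0.063). In fits of only the arrays compared, the C3H and B6 calls were lost (adjusted p = 0.0903 and 0.0655). Another Cd44 probe (A_52_P523459) changed by -0.42 in F1 (limma over all probes, adjusted p = 0.0308), -0.17 in C3H (adjusted p = 0.373) and -0.48 in B6 (adjusted p = 0.0151). With the mean of all 3 probes the changes were -0.22 in C3H (adjusted p = 0.152) and -0.26 in B6 (adjusted p = 0.108). In B6 that mean includes a probe (A_51_P407053) not well above background on any E2 2 h or vehicle array. The mean level of 5 leukocyte markers ranged from 0.10 to 2.23 on C3H E2 2 h arrays (median 0.14), against 0.22 to 0.47 with vehicle. That of 6 macrophage markers ranged from -0.10 to 1.10 (median -0.04), against -0.06 to 0.41. The part of these markers in the Cd44 values was not tested.

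Tnfaip6 (probe A_51_P315785, chr2:52063795-52063854, plus strand), whose product TSG-6 is made in cumulus and in inflamed tissue, was lower at 2 h in each strain. It stood at -2.78, -2.59 and -2.81 on the F1 E2 2 h arrays, against -1.95, -1.73 and -1.94 with vehicle. It stood at -2.84, -2.65 and -2.69 on the C3H E2 2 h arrays, against -1.37, -1.51 and -1.56 with vehicle. It stood at -2.92, -2.89 and -3.14 on the B6 E2 2 h arrays, against -1.65, -2.26 and -2.51 with vehicle. The groups did not overlap, though B6 vehicle was spread over almost 1 log2 unit. The falls were 1.81-fold in F1 (log2 change -0.85, SE 0.15, limma adjusted p = 4.5e-05), 2.37-fold in C3H (-1.25, adjusted p = 3.57e-07) and 1.80-fold in B6 (-0.85, adjusted p = 5.76e-05). Within the shared B6 slide (1 array against 3) the change was -0.78 (adjusted p = 0.234).

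In whole uterus fewer cells of a type and less RNA per cell cannot be told apart. Of 9 markers of endometrial stroma, where hyaluronan is laid down, 0 rose and 8 fell in F1, 8 fell in C3H and 7 fell in B6 at E2 2 h. Of all tested genes, 35.5% were called lower in F1, 35.5% in C3H and 33.1% in B6 at that time. All 9 stromal markers were well above background on every array. The mean level of the 9 ranged from 3.62 to 3.88 on F1 E2 2 h arrays, against 4.75 to 4.81 on F1 vehicle arrays. It ranged from 3.67 to 3.84 on C3H E2 2 h arrays, against 4.79 to 4.97 with vehicle, and from 3.47 to 3.94 on B6 E2 2 h arrays, against 4.58 to 4.69 with vehicle. At 24 h it ranged from 5.26 to 5.32 in F1, 5.30 to 5.49 in C3H and 5.22 to 5.38 in B6. The 9 markers were split at that time, with 4 called higher and 4 lower in F1, 4 higher and 5 lower in C3H, and 5 higher and 4 lower in B6, and median changes of -0.08, -0.22 and 0.22. Of all tested genes, 68.5%, 67.1% and 68% were called at 24 h in these strains. The part of these markers in the changes of Has1, Has2, Has3 and Tnfaip6 was not tested.

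**Figure D2:**
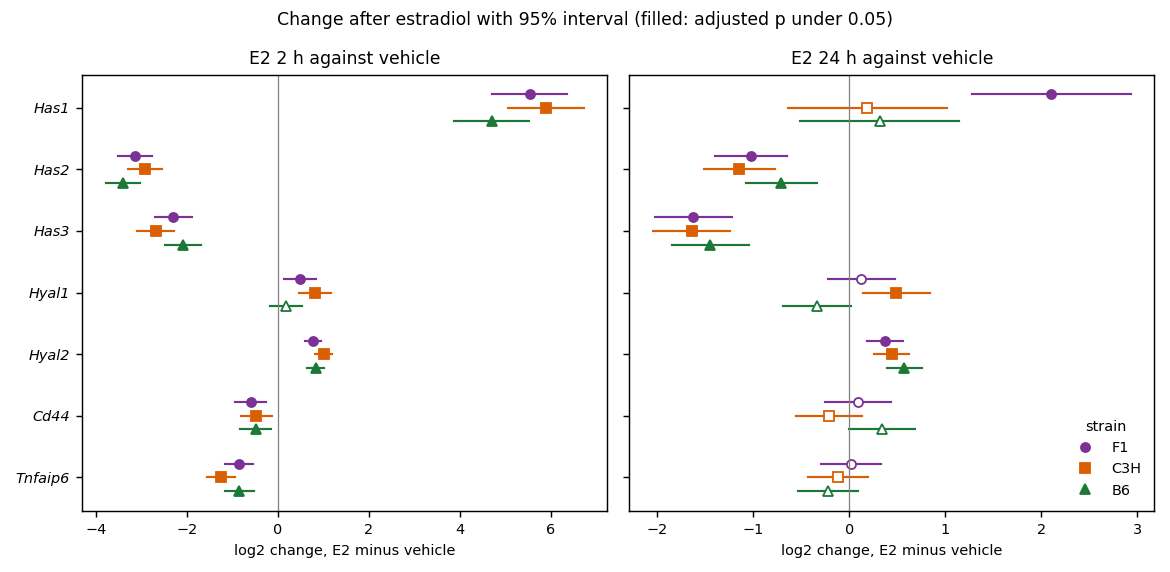
Log2 change of each hyaluronan gene after E2 (x axis, E2 minus vehicle) at 2 h and 24 h, by strain, with 95% intervals from limma; filled points had an adjusted p under 0.05. Has1 lies at 4.70 to 5.89 at 2 h and Has2 at -3.40 to -2.92. At 24 h Has2 and Has3 stay left of 0 in every strain, and Has1 is called in F1 alone.

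By 24 h Has2 and Has3 were still below vehicle in all 3 strains, Hyal2 was still above it, Tnfaip6 was not called in any strain, Cd44 was not called by the probe used for the gene, and Has1 was called in F1. In F1 2 members rose and 2 fell, where 68.5% of all genes were called (31.8% higher and 36.7% lower). In C3H 2 members rose and 2 fell, with 67.1% of all genes called (27.1% higher and 40.1% lower). In B6 1 member rose and 2 fell, with 68% of all genes called (30.9% higher and 37.1% lower). Scaling to the median gave 9097 higher and 6076 lower genes in F1, in place of 6952 and 8017. For C3H it gave 7709 higher and 6355 lower, in place of 5918 and 8757, and for B6 9214 higher and 5937 lower, in place of 6745 and 8114. With no scaling 8408 genes were higher and 6018 lower in F1.

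Has1 stood at -0.68, -2.21 and -3.23 on the F1 E2 24 h arrays, against -3.54, -4.41 and -4.46 on the F1 vehicle arrays. It stood at -3.96, -3.87 and -4.02 on the C3H E2 24 h arrays, against -4.11, -4.05 and -4.23 with vehicle. It stood at -3.48, -4.02 and -3.38 on the B6 E2 24 h arrays, against -3.93, -4.41 and -3.49 with vehicle. The F1 arrays spread over more than 2 log2 units without reaching the vehicle range, the C3H arrays lay just above their vehicle arrays, and in B6 the groups overlapped. The rise was 4.29-fold in F1 (log2 change 2.10, SE 0.40, limma adjusted p = 8.86e-05), while the changes of 0.18 in C3H (adjusted p = 0.696) and 0.32 in B6 (adjusted p = 0.493) were not called. Without F1 E2 24 h replicate 1 the F1 change was 1.42 (adjusted p = 0.000272). The difference between strains in the 24 h response was not called: F1 exceeded C3H by 1.92 (95% interval 0.75 to 3.09, adjusted p = 0.0607) and B6 by 1.79 (0.62 to 2.95, adjusted p = 0.102). Without F1 E2 24 h replicate 3, both differences were called (2.51, adjusted p = 0.00838, and 2.38, adjusted p = 0.0133). The difference from C3H was also called with no scaling between arrays (1.96, adjusted p = 0.0481) and with an intensity trend in the variance model (adjusted p = 0.0477). All 5 adipocyte markers tested were called lower in F1 at 24 h, with a median change of -2.44, against none in C3H or B6 (medians of 0.35 and -1.86). Of all tested genes, 36.7% were called lower in F1, 40.1% in C3H and 37.1% in B6 at that time. The mean level of the 5 adipocyte markers ranged from -3.87 to -2.02 on F1 E2 24 h arrays, against -1.51 to 0.87 on F1 vehicle arrays. Their part in the Has1 change was not tested.

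Against the 2 h arrays, Has1 at 24 h was lower by 3.44 on the log2 scale in F1, by 5.71 in C3H and by 4.39 in B6 (limma adjusted p = 1.4e-07, 6.97e-11 and 3.31e-09). Here 4 members were higher and 2 lower in F1, where 68.4% of all genes were called (37.6% higher and 30.8% lower). In C3H 3 members were higher and 2 lower, with 70.6% called (33.9% higher and 36.7% lower), and in B6 4 were higher and 3 lower, with 68.6% called (35.5% higher and 33.1% lower). Within the shared slide the Has1 change was -5.72 in C3H and -4.53 in B6.

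Has2 stood at -1.32, -1.82 and -1.82 on the F1 E2 24 h arrays, at -1.45, -1.94 and -1.80 on those of C3H and at -1.67, -1.51 and -1.73 on those of B6. These lie above every E2 2 h array and below every vehicle array of the same strain. Has2 was higher at 24 h than at 2 h by 2.11 in F1, 1.77 in C3H and 2.69 in B6 on the log2 scale. By the second Has2 probe these differences were 1.29 in F1 (limma over all probes, adjusted p = 3.02e-05), 0.58 in C3H (adjusted p = 0.0267) and 2.21 in B6 (adjusted p = 1.71e-08). In C3H its groups overlapped, with -2.35 to -2.21 on the E2 24 h arrays and -3.30 to -2.23 on the E2 2 h arrays. Against vehicle it remained 2.04-fold lower in F1 (log2 change -1.03, limma adjusted p = 3.37e-05), 2.21-fold lower in C3H (-1.15, adjusted p = 1.04e-05) and 1.64-fold lower in B6 (-0.71, adjusted p = 0.0014). The second Has2 probe was lower by 1.35 in F1, 1.74 in C3H and 0.78 in B6. With slide as a term the B6 change was -0.56 and was not called (adjusted p = 0.184). Has3 was 3.09-fold lower in F1 (log2 change -1.63, adjusted p = 2.4e-07), 3.12-fold lower in C3H (-1.64, adjusted p = 2.63e-07) and 2.74-fold lower in B6 (-1.45, adjusted p = 1.04e-06). Its B6 change with slide as a term was -0.77 (adjusted p = 0.0593). With the other background correction the Has3 changes from vehicle were -0.63 in F1, -0.64 in C3H and -0.49 in B6, all called. Has3 was higher at 24 h than at 2 h by 0.67 in F1 (adjusted p = 0.00406), 1.04 in C3H (adjusted p = 6.61e-05) and 0.64 in B6 (adjusted p = 0.00604). With the other background correction the F1 and B6 values were 0.15 and 0.16 and were not called.

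Hyal2 stood at 3.58, 3.63 and 3.48 on the F1 E2 24 h arrays, at 3.81, 3.53 and 3.67 on those of C3H and at 3.58, 3.64 and 3.69 on those of B6. All of these were above the vehicle arrays of their strain. It was 1.29-fold higher than vehicle in F1 (log2 change 0.37, limma adjusted p = 0.001), 1.35-fold higher in C3H (0.44, adjusted p = 0.000209) and 1.49-fold higher in B6 (0.57, adjusted p = 8.11e-06). Under quantile normalization the F1 change was 0.14 and was not called (adjusted p = 0.106). Tnfaip6 changed by 0.02 in F1, -0.12 in C3H and -0.22 in B6 against vehicle, none called, after being higher at 24 h than at 2 h by 0.87, 1.13 and 0.62 in the same strains (limma adjusted p = 2.69e-05, 1.05e-06 and 0.000889). Without B6 vehicle replicate 3 the B6 change from vehicle was -0.40 (adjusted p = 0.0186). Cd44 changed by 0.09 in F1 (adjusted p = 0.644), -0.21 in C3H (adjusted p = 0.266) and 0.34 in B6 (adjusted p = 0.0723) against vehicle, and in B6 it was called with scaling to the median (0.58, adjusted p = 0.00244) and with slide as a term (0.92, adjusted p = 0.0156). With the mean of all 3 Cd44 probes the change was called higher in F1 (0.57, adjusted p = 0.000815) and B6 (0.64, adjusted p = 0.00025). That mean includes a probe (A_51_P407053) that was not well above background on any F1 or B6 vehicle array, so its size is not measured. Neither other Cd44 probe was called. In fits of only the arrays compared, it was called lower in C3H (adjusted p = 0.039) and higher in B6 (adjusted p = 0.0258).

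In the fit of all arrays, Hyal1 was the member whose response to E2 was called different between strains. This was at 24 h in C3H against B6, by the probe used for each gene. At 24 h Hyal1 stood at -0.13, -0.27 and -0.12 on C3H E2 arrays, against -0.62, -0.68 and -0.69 with vehicle. In B6 it stood at -0.57, -0.65 and -1.16 on E2 24 h arrays, against -1.01, -0.25 and -0.11 with vehicle. All C3H E2 24 h arrays were above their vehicle arrays, while the B6 groups overlapped through vehicle replicate 1, the lowest of its group. The change was 0.49 in C3H (limma adjusted p = 0.0153), 0.12 in F1 (adjusted p = 0.526) and -0.34 in B6 (adjusted p = 0.0863). The response in C3H exceeded that in B6 by 0.83 (SE 0.24, 95% interval 0.33 to 1.32, adjusted p = 0.0208), where 18.7% of all genes were called. Without B6 vehicle replicate 1 it was 1.10 (adjusted p = 0.000375), and then the B6 change itself was called (-0.61, adjusted p = 0.000399), as was the excess of F1 over B6 (0.74, adjusted p = 0.0413). Without that array the 2 h responses of C3H and B6 also differed, for Hyal1 by 0.93 (adjusted p = 0.00735) and for Tnfaip6 by -0.65 (adjusted p = 0.0391). The call at 24 h was lost without B6 vehicle replicate 2 (0.72, adjusted p = 0.0605), B6 vehicle replicate 3 (0.65, adjusted p = 0.0651) or B6 E2 24 h replicate 3 (0.64, adjusted p = 0.0649), with no scaling between arrays (0.88, adjusted p = 0.0623) and in a fit of the 4 groups alone (0.83, adjusted p = 0.109). That fit of the 4 groups alone called the 24 h response of Cd44 different in C3H against B6 (-0.55, limma adjusted p = 0.0169). The second Has2 probe (-0.96) and Cd44 probe A_51_P407053 (-0.757) were also called for this contrast, where 16.5% of all probes were called. For that Cd44 probe the B6 vehicle arrays were not well above background. In the limma fit of all arrays, by the probe used for each gene, no other member's response differed by a called amount between strains. At 2 h 0 of 7 were called for C3H against B6 (2.16% of all genes), F1 against B6 (0.599%) and F1 against C3H (0.229%). At an unadjusted p under 0.05 these counts were 3, 0 and 0. At 24 h 0 of 7 were called for F1 against B6 (1.9%) and for F1 against C3H (3.7%), with 1 each at an unadjusted p under 0.05.

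**Figure D3:**
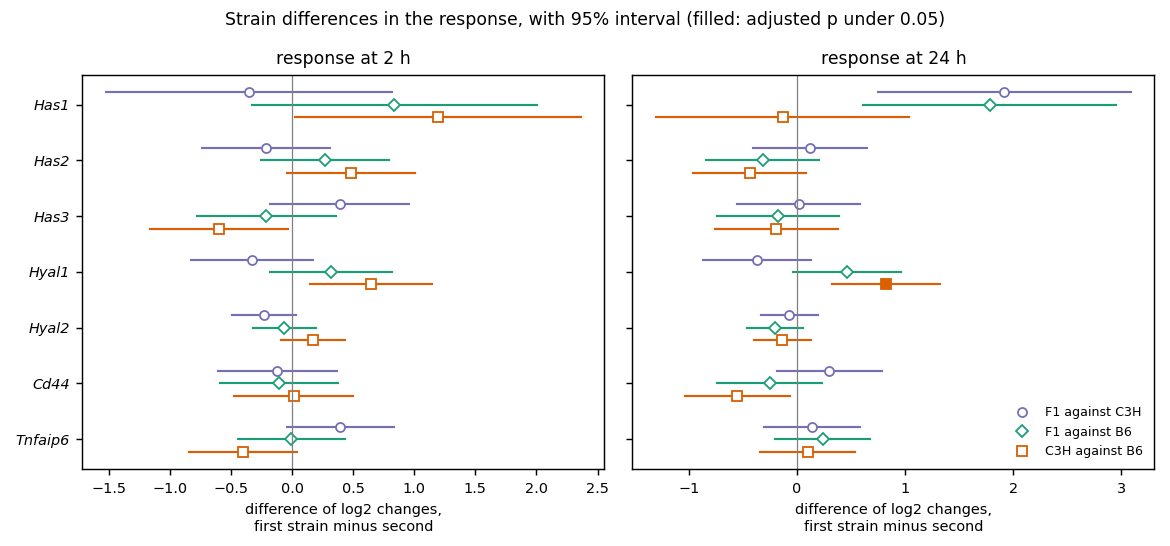
Difference between strains in the E2 response of each member (x axis, log2 change in the first strain minus that in the second) at 2 h and 24 h with 95% intervals; filled points had an adjusted p under 0.05. Hyal1 at 24 h in C3H against B6 (0.83) is the filled point. The Has1 intervals of F1 against C3H and B6 at 24 h lie right of 0 without an adjusted p under 0.05.

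With vehicle alone, 1 of 7 members differed between C3H and B6 (24.1% of all genes called), 0 of 7 between F1 and B6 (12.5%) and 0 of 7 between F1 and C3H (14.3%) in limma. At an unadjusted p under 0.05 the F1 counts were 0 against B6 and 1 against C3H. Tnfaip6 averaged -1.48 ± 0.10 in C3H vehicle arrays and -2.14 ± 0.44 in B6 vehicle arrays (SD, n = 3 each), a difference of 0.66 (limma adjusted p = 0.00219). Every C3H vehicle array was above every B6 vehicle array, and the difference was 0.91 without B6 vehicle replicate 1, when F1 also differed from B6 (0.51, adjusted p = 0.00705). With slide as a term it was 0.99 (adjusted p = 0.129), and in a fit of the 2 groups alone 0.66 (adjusted p = 0.0952). F1 averaged -1.87 ± 0.12, between its parents. All 5 adipocyte markers tested were also called lower in C3H than in B6 with vehicle, with a median difference of -3.39: the mean level of 5 markers ranged from -4.64 to -0.82 on C3H vehicle arrays, against -0.68 to 0.40 on B6 vehicle arrays. The mean level of 5 leukocyte markers ranged from 0.53 to 1.82 on B6 vehicle arrays (median 0.62), against 0.22 to 0.47 on C3H vehicle arrays. That of 6 T and NK cell markers ranged from -3.10 to -1.71 (median -2.97), against -3.37 to -3.19. None of the 5 was called between these groups, and of the 6 T and NK cell markers 1 was higher and 2 lower in C3H. Of 7 smooth muscle markers, 5 were higher and 0 lower in C3H, with a median difference of 0.31. Of 9 stromal markers, 2 were higher and 0 lower, with a median of 0.25. The part of all these markers in the Tnfaip6 and Hyal1 differences was not tested.

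Cd44 is spliced into many forms, and 1 of its 3 probes is listed in the files for 2 of the 3 RefSeq transcripts that the other 2 probes cover. It lies on the minus strand of mouse build mm7 at chr2:102685050-102685109, 21.5 kb from the probe used for the gene, and its sequence is shown because its readings departed from those of the other probes.
Cd44 probe A_51_P407053: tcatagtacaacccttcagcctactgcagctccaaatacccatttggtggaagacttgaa
This probe was well above background on 15 of 27 arrays: on 0 of 3 in the E2 2 h and vehicle groups of F1 and B6, and on all 3 in the other 5 groups. At E2 24 h it stood at -5.58 ± 0.16 in F1, -5.54 ± 0.07 in C3H and -5.72 ± 0.21 in B6 (SD, n = 3 each). With vehicle it stood at -6.97 ± 0.15 in F1, -6.10 ± 0.02 in C3H and -7.05 ± 0.13 in B6. The E2 24 h arrays were above the vehicle arrays in each strain, with no overlap. The rise was at least 2.25-fold in F1 (limma over all probes, adjusted p = 4.39e-07) and at least 2.37-fold in B6 (adjusted p = 8.24e-07), where the vehicle arrays give only a bound set by the lowest signal well above background. In C3H the log2 change was 0.57 (adjusted p = 0.00678). The probe used for the gene changed by 0.09, -0.21 and 0.34 in F1, C3H and B6, and the third probe by 0.22, -0.04 and 0.25, none called. Over all probes, 69% were called in F1, 66.7% in C3H and 68.2% in B6 at 24 h.

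At 2 h this probe itself was not called in any strain. Since F1 and B6 arrays at 2 h and with vehicle were not well above background, their true differences are not measured, and this probe was singled out after its values were seen. With vehicle, C3H was at least 1.82-fold above B6 by this probe (limma over all probes, adjusted p = 0.000281), and F1 was at least 1.57-fold below C3H (adjusted p = 0.00165), where 22.6% and 13% of all probes were called.

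**Figure D4:**
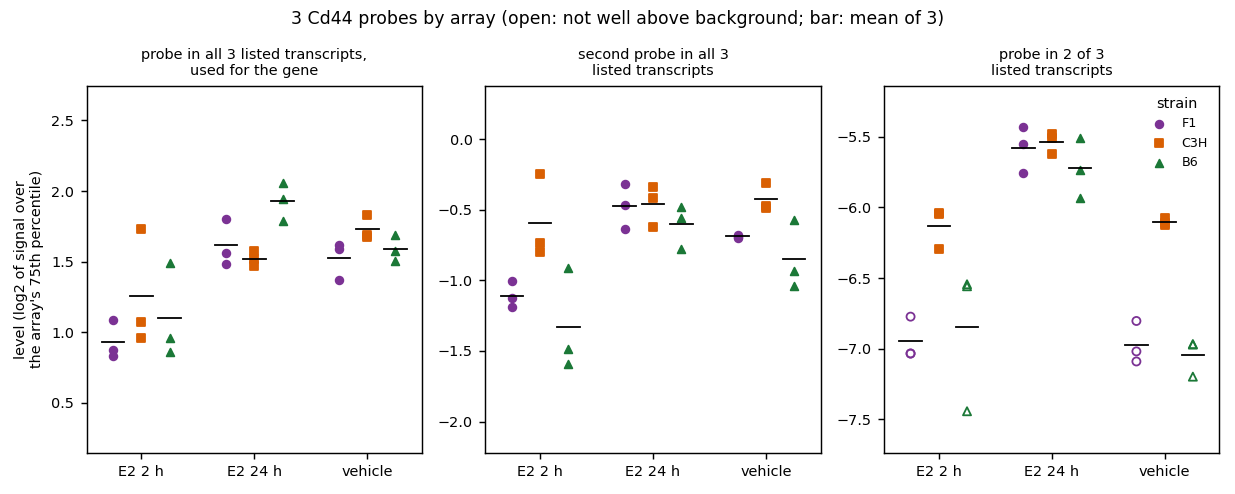
Level of the 3 Cd44 probes (log2 of signal over the array's 75th percentile, y axes of equal length) on every array, by treatment and strain; open points are not well above background and bars are means of 3 arrays. The probe listed for 2 of 3 transcripts stands highest at E2 24 h (means -5.72 to -5.54), and C3H vehicle arrays (mean -6.10) stand above those of F1 and B6.

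At 24 h, most of 12 genes that supply the UDP-sugars of hyaluronan were called higher: 10 against 0 lower in F1, 9 against 1 in C3H and 10 against 1 in B6. The medians were 0.54, 0.35 and 0.52 in these strains, against -0.03, -0.16 and -0.05 over all tested genes, of which 31.8%, 27.1% and 30.9% were higher. Scaling to the median moved those medians of all genes to 0.17, 0.03 and 0.18. Values of single genes in this and the following lists are log2 changes from vehicle. At 2 h the counts of risen and fallen genes were 6 and 5 in F1, 6 and 5 in C3H, and 6 and 6 in B6. Of all tested genes, 23.7%, 24.8% and 23.1% were higher in these strains at that time, and 35.5%, 35.5% and 33.1% were lower. Hk2, a hexokinase that starts glucose use, rose by 2.06 in F1, 2.02 in C3H and 1.77 in B6 at 2 h, and Hk1 by 1.33, 1.47 and 1.45. Gfpt2, an enzyme that commits fructose 6-phosphate to the hexosamine pathway, rose by 1.10, 1.27 and 0.81 at 2 h in the same strains. At 24 h Gfpt2 was lower than vehicle in C3H (-0.52, limma adjusted p = 0.0351) and B6 (-0.58, adjusted p = 0.0196). In F1 it was not called then (-0.01). Pgm3, a phosphoacetylglucosamine mutase of the same pathway, rose by 0.83, 0.79 and 1.12 at 24 h.

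Of 10 other genes for hyaluronan breakdown, 6 were tested, and Hyal4, Hyal5, Hyal6 and Spam1 did not pass the filter on dim probes. At 24 h 1 rose and 2 fell in F1 and in C3H, and 1 rose and 3 fell in B6. The medians were -0.20, -0.16 and -0.41, against -0.03, -0.16 and -0.05 over all tested genes, of which 68.5%, 67.1% and 68% were called. At 2 h the counts called higher and lower were 1 and 4 in F1, 1 and 1 in C3H, and 1 and 4 in B6. At that time 59.2%, 60.3% and 56.3% of all tested genes were called in these strains. Cemip, which encodes a hyaluronan-binding protein needed for its depolymerisation in fibroblasts, fell at 24 h, with log2 changes of -2.45 in F1, -2.12 in C3H and -2.50 in B6 (limma adjusted p = 5.01e-13, 7.39e-12 and 2.51e-13). Hyal3, a hyaluronidase family member, changed by 0.51, 0.66 and 0.80 at 2 h and by -1.08, -0.81 and -1.14 at 24 h, all called. Gusb, lysosomal β-glucuronidase, rose by 1.46, 1.28 and 1.46 at 24 h.

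Of 16 hyaluronan-binding matrix genes, 15 were tested (Habp2 was not), and at 2 h the counts called higher and lower were 4 and 2 in F1, 5 and 5 in C3H, and 4 and 2 in B6, with medians of 0.02, -0.00 and -0.05. Of all tested genes, 59.2%, 60.3% and 56.3% were called in these strains. Ncan, the gene of neurocan, a proteoglycan best known from brain, rose by 3.98 in F1, 4.14 in C3H and 3.69 in B6 (limma adjusted p = 1.48e-11, 9.36e-12 and 5.91e-11). Hapln4, a link protein gene, rose at least 7.40-fold in F1, where the vehicle arrays were not well above background, and by 3.05 in C3H and 3.00 in B6 on the log2 scale. Hapln2, another link protein gene, was not well above background in F1 at either time and rose at least 1.84-fold in B6 at 2 h; its calls are among the counts. Ambp, the gene of bikunin, fell at both times, with log2 changes of -1.63, -1.47 and -1.47 at 2 h and -1.87, -2.44 and -2.95 at 24 h in F1, C3H and B6. At 24 h the counts higher and lower were 3 and 4 in F1, 3 and 7 in C3H, and 4 and 6 in B6, with medians of 0.34, -0.47 and 0.00. At that time 68.5%, 67.1% and 68% of all tested genes were called in these strains. Vcan, the gene of the large stromal proteoglycan versican, was added after its values were seen. It rose by 1.76 in F1, 1.58 in C3H and 2.02 in B6 at 24 h. Bcan, the brevican gene, rose by 0.93 in B6 (adjusted p = 0.0151) and fell by 0.83 in C3H (adjusted p = 0.0305) at 24 h.

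Of 7 other hyaluronan receptors, the counts called higher and lower at 24 h were 2 and 3 in F1, 2 and 2 in C3H, and 2 and 3 in B6, where 68.5%, 67.1% and 68% of all genes were called. At 2 h they were 2 and 2, 1 and 2, and 1 and 2 in the same strains, where 59.2%, 60.3% and 56.3% of all genes were called. The medians at 24 h were -0.25, -0.18 and -0.39. Hmmr, a hyaluronan-mediated motility receptor that is also a mitotic spindle protein, rose at least 8.60-fold in F1, and by 2.87 in C3H and 3.51 in B6 on the log2 scale. Tlr4, a receptor of bacterial lipopolysaccharide that also answers hyaluronan fragments, fell at 2 h, with log2 changes of -1.42, -1.39 and -1.45. Layn, the layilin gene, changed by -0.52, -0.81 and -0.53 at 2 h and by 0.53, 0.56 and 0.71 at 24 h, all called. Lyve1, the lymphatic hyaluronan receptor, rose by 0.48, 0.92 and 0.70 at 2 h. Of 20 genes for chondroitin and heparan sulfate, the sulfated chains that share UDP-glucuronic acid with hyaluronan, those called higher and lower at 2 h were 10 and 2 in F1, 11 and 2 in C3H, and 13 and 2 in B6. The medians were 0.30, 0.28 and 0.23. Of all tested genes, 23.7% were higher and 35.5% lower at that time in F1, 24.8% and 35.5% in C3H, and 23.1% and 33.1% in B6, with medians of -0.10, -0.10 and -0.08. Chst11, a chondroitin 4-sulfotransferase, rose by 2.03, 2.34 and 2.09 at 2 h, and Chsy1, a chondroitin synthase, by 1.61, 1.14 and 1.52. Chst15 rose by 1.94, 2.01 and 1.75 at 2 h and was lower than vehicle at 24 h, with log2 changes of -0.46, -0.64 and -0.81. At 24 h the counts over the list were 11 and 7, 9 and 7, and 9 and 7, where 68.5%, 67.1% and 68% of all genes were called. Chpf, a chondroitin polymerizing factor, rose by 0.92, 0.92 and 0.90 at 24 h.

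**Figure D5:**
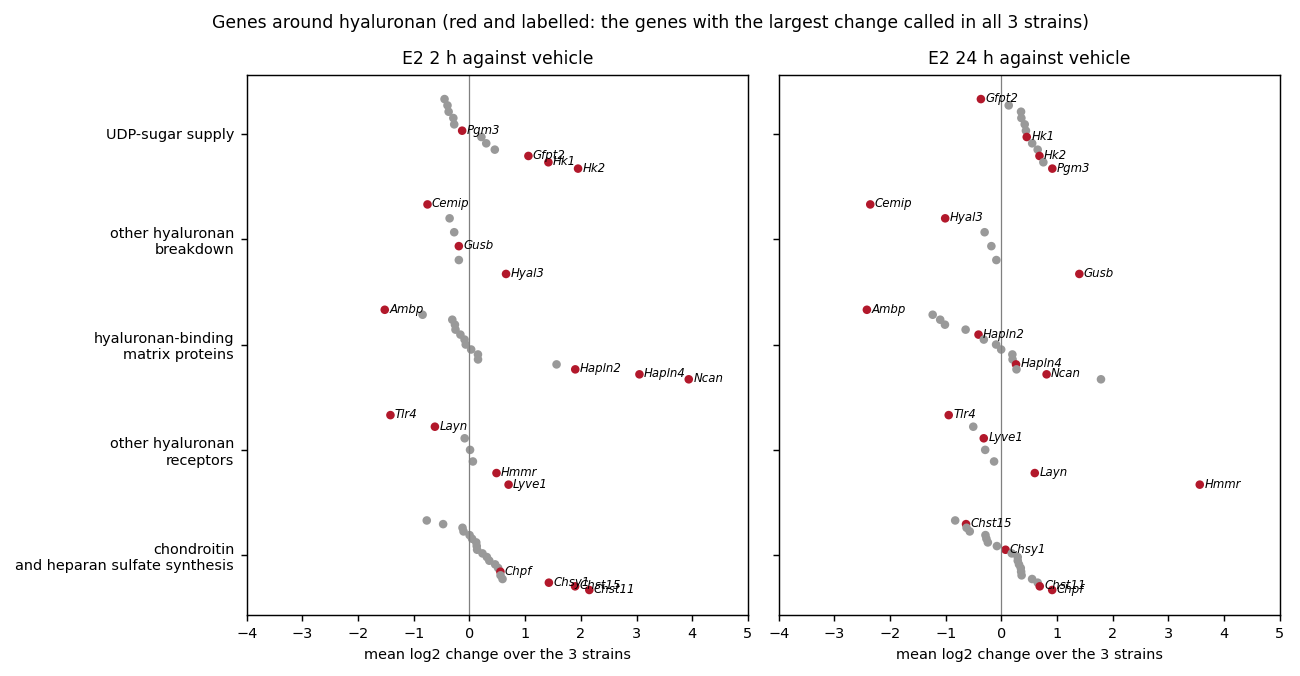
Mean log2 change over the 3 strains (x axis, E2 minus vehicle) for each tested gene of 5 lists around hyaluronan at 2 h and 24 h; red labelled points are the genes with the largest change called in all 3 strains. Ncan and Hapln4 stand to the right at 2 h, and Hmmr to the right and Cemip to the left at 24 h. Some points, Hapln2 among them, are not well above background in every group.

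The genes whose level ran most like a member's over the 27 arrays were found by Pearson's r, a description that mainly follows the 9 groups. For Has1 they were Sbno2 (0.984), Junb (0.974) and Rcan1 (0.974). For Has2 they were Ppp1r3d (0.985), Fzd1 (0.98) and 4930430F08Rik (0.98). For Hyal2 they were Nop56 (0.974), Tmem11 (0.971) and Ccnc (0.97), and for Tnfaip6 Depdc7 (0.933), Plin2 (0.931) and Lrrc34 (0.929). For Has3 they were AK037075 (0.977), Gas2l3 (0.977) and LOC666794 (0.975). The r values were lower for Cd44, with Mrtfa (0.88), Lipa (0.876) and Mapk14 (0.865), and for Hyal1, with Aar2 (0.826), B4galt3 (0.825) and Rnf41 (0.818).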

How the data were processed

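Uterine RNA was measured on 27 one-colour Agilent whole mouse genome arrays, 3 in each of 9 groups taken from the labels. Spot intensity was deposited as scanner output, in linear units. Feature Extraction 9.5.3.1 subtracted background within each array and put surrogates in place of low values, without scaling arrays to each other, per the file headers. Version 9.5 of Agilent Feature Extraction is named in the submitters' processing notes. On all 27 arrays the deposited value table matched this intensity.

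Control spots and outlier marks were left out, and spots of 1 probe were averaged. Levels are log2 of processed signal over the 75th percentile of the same array. Probes were tested if every array of some group had them well above background (32901 of 41174), and the brightest stood for its gene. Where no array of a group was well above background, a fold is given as "at least": the bright group's mean over a dim group's mean in which each array's signal was raised to the array's dimmest signal still well above background where it was lower. The number of arrays limits the precision. Names came from RefSeq through accession (23082 probes), symbol (6582) or synonym (3073), and 8437 probes kept the file's name.

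Group means of all 27 arrays were fitted with limma 3.58.1 (R 4.3.3, 18 residual degrees of freedom), and p-values were Benjamini-Hochberg adjusted over all genes for each of 18 contrasts. The fit was tested on simulated data. All members are named. From each pathway list, values are given for up to 4 genes with the largest mean change called in all 3 strains with one sign and for genes called with opposite signs in 2 strains. The 3 genes with the highest Pearson correlation are given for each member. The members, lists and tests were chosen with earlier results of these data known. Replicate numbers were not used to pair samples. Deviations from group means correlated at a median of 0.0119 between arrays of the same number (108 pairs, 23 of them over 0.1). Between arrays of different numbers the median was 0.00225 (216 pairs, 24 of them over 0.1). A median over all pairs cannot show that no samples were paired, and the labels do not say. Alternatives covered scaling, background correction, probe choice, filter, slide, variance model, replicate block and leaving out each array. Another set slides 6 and 7 apart from the other slides, a split that the sample labels do not name. Figures were drawn with matplotlib 3.10.9 (Python 3.11.15, numpy 2.4.6, pandas 2.3.3).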

Additional observations from a re-analysis of the deposited data

Results flagged for a closer look

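Several responses differed between strains by the test of the difference itself, in limma with Benjamini-Hochberg adjustment. For the 24 h response of C3H against B6, 18.7% of all genes and 16.5% of all probes were called. A few calls in that contrast are thus no result about the members or lists as a group. At 24 h the Hyal1 response in C3H exceeded that in B6 by 0.825 on the log2 scale (adjusted p = 0.0208), and the overlapping second Hyal1 probe gave 0.854 (adjusted p = 0.0396). The second Has2 probe fell more in C3H than in B6, by a difference of -0.960 (adjusted p = 0.0417), where the probe used for Has2 gave -0.44 (adjusted p = 0.239). With vehicle the second Has2 probe was 0.76 higher in C3H than in B6 (adjusted p = 0.0166), where 22.6% of all probes were called. The Cd44 probe listed for 2 of 3 transcripts differed by -0.757 (adjusted p = 0.038), and the B6 vehicle arrays were not well above background for it.

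Among the genes around the members, the 24 h response of Hk2 in C3H fell short of that in B6 by a difference of -0.882 (adjusted p = 0.00899), and that of Pgm3 by -0.331 (adjusted p = 0.00588). Bcan was called in opposite directions in C3H and B6 at 24 h, with a difference of -1.76 (adjusted p = 0.0113). Hapln2 differed between C3H and B6 by -2.14 at 2 h (adjusted p = 0.000397) and by -1.502 at 24 h (adjusted p = 0.00274), and between F1 and C3H by 1.49 at 24 h (adjusted p = 0.0134). It was not well above background in most groups, so the sizes of its differences are not measured. Of all genes, 2.16% were called for C3H against B6 at 2 h and 3.7% for F1 against C3H at 24 h. For the genes around the members and for the members' other probes, groups of 3 arrays were not examined for single outlying values.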

How the results depend on the processing

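Of 2831 values of member changes under the alternatives, 2750 kept their direction and their side of the threshold, 42 lost the call, 39 gained it and 0 reversed. The cause was not tested. The number of members called for E2 24 h against E2 2 h in C3H was 5 and became 3 within one slide. For vehicle C3H against B6 it was 1, and became 3 with the mean of all probes, 0 with slide as a fixed term or with only the arrays of the contrast, and 2 without the 3 arrays that stood apart. For vehicle F1 against C3H it was 0, and became 1 with no scaling, with the mean of all probes, with only the arrays of the contrast and without those 3 arrays. Without them it became 1 for vehicle F1 against B6, for the 2 h response of C3H against B6 and for the 24 h response of F1 against B6, where it had been 0. The 24 h response count was 0 for C3H against B6 with no scaling, and 1 for F1 against C3H with no scaling or with a variance trend. Over all genes, 10561 were called in place of 15436 for E2 24 h against E2 2 h in C3H within one slide. For vehicle C3H against B6, 1653 were called in place of 5277 with slide as a fixed term, and 5581 without the 3 arrays. Without them 4109 were called in place of 3132 for vehicle F1 against C3H. A moved count of members is no result about them.

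Leaving out each array in turn gave 6 to 7 members called in F1, 6 to 7 in C3H and 5 to 6 in B6 at 2 h. With all arrays, 59.2%, 60.3% and 56.3% of all genes were called then in these strains. At 24 h leaving out each array gave 4 to 4, 4 to 4 and 3 to 4, with shares of all genes of 68.5%, 67.1% and 68%. For 24 h against 2 h it gave 6 to 6, 5 to 6 and 6 to 7, with shares of 68.4%, 70.6% and 68.6%. Vehicle counts were 1 to 2 for C3H against B6, 0 to 1 for F1 against B6 and 0 to 0 for F1 against C3H. The shares of all genes called with all arrays were 24.1%, 12.5% and 14.3% for these contrasts. Response counts were 0 to 2 for C3H against B6 at 2 h, 0 to 1 in each strain pair at 24 h, and 0 to 0 for the other pairs at 2 h. For C3H against B6, F1 against B6 and F1 against C3H the shares of all genes were 2.16%, 0.599% and 0.229% at 2 h. At 24 h they were 18.7%, 1.9% and 3.7%. Counts of members near such shares are no result about them.

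With the replicate number as a replicate block, 7 members were called at 2 h in F1 as without it, 18 of 18 counts were equal and 0 of 126 member calls changed. The labels do not say whether the numbers pair samples.

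Within one slide 8006 genes were called in place of 12941 (F1, 2 h) and 4673 in place of 12297 (B6, 2 h), and with slide as a term 1653 in place of 5277 for vehicle C3H against B6. For vehicle F1 against B6 it was 1426 in place of 2732 with only the arrays of the contrast. For the 2 h response it was 259 in place of 473 (C3H against B6, no scaling), 20 to 344 around 131 (F1 against B6) and 20 to 150 around 50 (F1 against C3H). For the 24 h response it was 2284 in place of 4092 (C3H against B6, no scaling), 77 to 577 around 415 (F1 against B6) and 206 to 2293 around 809 (F1 against C3H). Scaling to the median moved the median of all genes by up to 0.237 (24 h, B6), and no scaling by up to 0.231 (2 h, F1). The planned normexp correction could not be fitted on 6 of 27 arrays. It was replaced, after seeing the data, by 1 with those arrays' background parameters set to the median of the others, and leaving out the 3 arrays was also chosen then. Signal over background limits Has3 at 2 h and the Cd44 probe listed for 2 transcripts.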

Other observations

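Markers of other cell types in whole uterus moved as follows, by limma with Benjamini-Hochberg adjustment. Of all tested genes, 31.8% were higher and 36.7% lower at 24 h in F1, 27.1% and 40.1% in C3H, and 30.9% and 37.1% in B6. At 2 h 23.7% were higher and 35.5% lower in F1, 24.8% and 35.5% in C3H, and 23.1% and 33.1% in B6. A count of markers near these shares is no result about the markers. Of 8 epithelial markers, those called higher at 24 h were 6 in F1, 6 in C3H and 7 in B6, with 1 lower in each strain, with medians of 1.08, 0.89 and 1.17 on the log2 scale. At 2 h none was higher, and 3, 4 and 3 were lower in those strains. Of 7 smooth muscle markers, 7 rose in F1, 5 in C3H and 5 in B6 at 24 h. Of 6 blood endothelial markers, 5 fell in F1, 3 in C3H and 5 in B6 at that time. At 2 h those that fell were 4, 3 and 3. Of 6 markers of T and NK cells, 4 fell in F1, 4 in C3H and 5 in B6 at 24 h, with medians of -1.02, -0.83 and -1.56. Their mean level was spread from -3.10 to -1.71 on B6 vehicle arrays (median -2.97), against -4.04 to -3.91 on B6 E2 24 h arrays. All 3 lymphatic markers tested fell at 24 h in each strain, with medians of -1.37 in F1, -0.92 in C3H and -1.42 in B6. Of 5 neutrophil markers tested, 3 rose at 2 h in C3H, with a median of 2.00, and the medians of 0.65 in F1 and 0.64 in B6 came with no call.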
